A study of Mus musculus with 16 samples.

Results

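Interferon regulatory factors (IRFs) are the transcription factors that switch on interferon genes and the genes that answer interferon, and 7 of them were followed here through the immune cells of 2 mouse tumors with and without radiation. The 7 genes, Irf1, Irf2, Irf4, Irf5, Irf7, Irf8 and Irf9, were taken by name from the gene by barcode matrices, where they are 7 of 31053 features. The rule that lists them uses names and no measured value, although it was set with earlier results of these data known. All 7 passed the filter on low counts over all CD45+ cells, where 12447 genes were tested. The cells were live CD45+ leukocytes sorted from tumors on the flank of young adult C57BL/6J mice. The tumors grew from injected cells of MC38 (colorectal carcinoma) or of Panc02-SIY, a pancreatic adenocarcinoma that makes SIY as a model antigen, so each tumor type is 1 line in 1 host strain. Tumors were left untreated (NT) or given a single radiation dose of 12 Gy (RT), and harvested 24 h later. Each of the 4 groups had 4 libraries made with 10x Genomics 3′ chemistry (16 libraries in all), which counts unique molecular identifiers (UMIs) per gene and cell barcode. The deposited design and the methods of the study give different numbers of animals per group, so the 4 libraries of a group may not be 4 animals, and p-values measure the spread between libraries.

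Type I interferon is made after receptors for nucleic acids activate latent IRFs, and IRF7 is both induced by interferon and needed for strong interferon production, which closes an amplifying loop. Downstream of the interferon receptor, IRF9 is the DNA-binding subunit of the complex ISGF3, which also holds STAT2 and binds the interferon-stimulated response element (ISRE). Interferon gamma acts mainly at gamma-activated sites (GAS) and induces IRF1, an activator, while IRF2 binds the same elements and was first described as its antagonist. IRF5 acts below Toll-like receptors in myeloid cells. IRF4 and IRF8 are best known as factors of cell identity. IRF8 is needed for type 1 conventional dendritic cells (cDC1) and monocytes, and IRF4 for plasma cells, type 2 conventional dendritic cells (cDC2) and activated T cells.

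The regions before the first exon of 4 of the genes are shown for matches to the core letters of 2 kinds of element through which interferon acts. Irf1, Irf2 and Irf8 hold a match to at least 1 of the cores, and Irf7 holds none. The sequences are those of RefSeq on GRCm38.p6 (mm10), printed 5′ to 3′ in the direction of the gene, with bases inside the gene's own exons left out. Capitals mark matches to the core letters of an ISRE (GAAANNGAAA) or of a GAS (TTCNNNGAA), searched on both strands.
Irf1, chr11:53769764-53770013, plus strand: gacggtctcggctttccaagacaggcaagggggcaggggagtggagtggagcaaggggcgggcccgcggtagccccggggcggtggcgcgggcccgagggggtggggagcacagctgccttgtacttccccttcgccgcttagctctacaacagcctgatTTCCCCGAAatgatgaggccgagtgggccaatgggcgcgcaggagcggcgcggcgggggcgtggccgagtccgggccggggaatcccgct
Irf2, chr8:46739495-46739731, plus strand: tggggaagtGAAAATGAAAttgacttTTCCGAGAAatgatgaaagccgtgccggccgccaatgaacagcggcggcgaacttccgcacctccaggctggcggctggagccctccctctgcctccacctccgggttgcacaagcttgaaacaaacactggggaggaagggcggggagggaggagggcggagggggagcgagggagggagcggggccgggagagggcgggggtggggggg
Irf7, chr7:141266482-141266674, minus strand: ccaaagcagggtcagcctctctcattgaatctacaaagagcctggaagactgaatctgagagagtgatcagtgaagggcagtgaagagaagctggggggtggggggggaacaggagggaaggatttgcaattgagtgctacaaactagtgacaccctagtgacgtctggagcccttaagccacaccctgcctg
Irf8, chr8:120736108-120736357, plus strand: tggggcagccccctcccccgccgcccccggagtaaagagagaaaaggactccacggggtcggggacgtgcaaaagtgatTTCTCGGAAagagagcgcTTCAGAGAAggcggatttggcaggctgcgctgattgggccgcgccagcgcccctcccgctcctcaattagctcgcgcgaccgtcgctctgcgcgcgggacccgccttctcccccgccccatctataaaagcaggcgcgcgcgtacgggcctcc
Irf1 has 1 GAS core in this stretch, Irf8 has 2, and Irf2 has 1 ISRE core and 1 GAS core a few bases apart. Over the 10 windows of 250 bases that RefSeq gives for the 7 genes, the ISRE core was found only for Irf2 and the GAS core for Irf1, Irf2 and Irf8. Among 32851 such windows of all genes, 2.98% held the ISRE core and 7.02% the GAS core. No letters of either core were found in the window of Irf7, and a match or its absence in so short a stretch says nothing of binding. In the GENCODE annotation, Irf1 lies at chr11:53770014-53778374, Irf2 at chr8:46739732-46847458, Irf4 at chr13:30749226-30766976, Irf5 at chr6:29526625-29541871, Irf7 at chr7:141262706-141266481, Irf8 at chr8:120736358-120756694 and Irf9 at chr14:55603571-55610030. Irf9 shares 123 exonic bases with Rnf31 on the same strand, so reads there cannot be assigned to 1 gene by position.

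One property of the libraries precedes every result. In MC38, the same barcode sequences occurred across libraries: 769 of 2632 distinct barcodes were in all 8 MC38 libraries, and a pair of libraries shared a median of 83.3% of the barcodes of the smaller one. In Panc02-SIY that median was 5.54%. Each barcode was therefore kept only in the library of its tumor where it had the most UMIs, which left 20768 of 28678 barcodes (2632 from MC38 and 18136 from Panc02-SIY). Of the 7211 MC38 copies set aside, 4140 were in a library of the other treatment from the copy that was kept. Values for MC38 with all barcodes are given beside the calls that this choice ends. After it, MC38 libraries had 147 to 609 barcodes and Panc02-SIY libraries 1113 to 4452, so the levels of MC38 classes other than macrophages rest on few cells.

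Barcodes were assigned to a class by the share of its marker genes detected, and no Irf gene was a marker. Classes are named for their markers and are called macrophages, T cells and so on for short, in the sense of macrophage-like or T cell-like. The 7 largest usable classes were T cells (7634 barcodes), macrophages (4817), NK cells (2122), neutrophils (1763), monocytes (1245), B cells (187) and dendritic cells, which join cDC1 (209), cDC2 (132) and mature dendritic cells (130). Of 41 markers kept out of the gate to check it, 30 were highest in their own class. The markers that failed were mostly myeloid: none of 3 was highest in cDC2, and 1 of 3 in cDC1, in monocytes and in macrophages. Levels are CPM, the UMIs of the gene scaled to a fixed total of UMIs of the class in each library, given as mean ± SD over libraries with at least 10 barcodes of the class. CPM is not divided by gene length, so levels are compared between cells and not between genes. It is a share of the UMIs of a class and not a count per cell. The median kept barcode held 2352 UMIs in neutrophils, 3978 in macrophages, 4641 in NK cells and 9724 in monocytes. An order of classes by CPM, such as neutrophils over monocytes, thus need not hold for UMIs per cell.

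Each factor had its own order over the classes, best seen in Panc02-SIY, where all classes were covered. Irf1 was highest in neutrophils, with 1960 CPM against 539 in monocytes, the next of the classes compared in all 8 libraries, and 211 in NK cells, the lowest. The 8 neutrophil values ran from 1524 to 2681 CPM with a median of 1897, all above every value of every other class. Irf2 was also highest in neutrophils (357 ± 39.1 CPM, n = 8), followed by B cells (290 ± 67.4, n = 7) and monocytes (249 ± 35.8, n = 8), and lowest in mature dendritic cells (87.2 CPM). Irf9 had the same leading class, at 176 ± 24.2 CPM (n = 8) in neutrophils against 58.9 in NK cells and 63.1 in macrophages.

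The lineage factors were far more restricted than Irf1, Irf2 and Irf9. Irf8 in Panc02-SIY was highest in cDC1 (1875 ± 231 CPM, n = 6), mature dendritic cells (1497 ± 226, n = 5) and NK cells (1439 ± 399, n = 8), and lowest in CD4 T cells (67.7) and neutrophils (50.4). In cDC2, the dendritic class not defined by IRF8, Irf8 was 356 CPM over 3 libraries. All 3 were irradiated, as for every cDC2 level below, while the other classes join both treatments. In MC38 the highest class for Irf8 was NK cells, at 1307 CPM over 6 libraries with a range of 810 to 2165. Irf4 was highest in B cells (232 ± 98.1 CPM, n = 7), then in CD8 T cells (101 ± 24.0, n = 8), regulatory T cells (88.9) and CD4 T cells (85.2), and it was 80.9 CPM in cDC2 against 9.65 in cDC1. Macrophages, NK cells and neutrophils held 3.84 to 6.68 CPM of Irf4. Irf5 followed the myeloid classes, with 259 ± 53.5 CPM in monocytes, 255 in cDC1, 242 in cDC2, 141 in neutrophils and 128 in macrophages, against 9.63 in CD8 T cells and 13.6 in NK cells. MC38 showed the same split for Irf5, with 298 CPM in dendritic cells, 290 in monocytes, 193 in macrophages, 32.0 in NK cells and 26.4 in T cells.

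Irf7 was highest in myeloid classes of both tumors but at different levels. In Panc02-SIY it stood at 304 ± 88.5 CPM in neutrophils, 276 ± 83.4 in monocytes, 220 in cDC2 and 138 ± 40.6 in macrophages, and at 14.6 in B cells. Mature dendritic cells, at 34.7 CPM, lay among the lymphocytes, between NK cells (49.7) and CD8 T cells (33.2). In MC38 it reached 634 ± 142 CPM in monocytes, 465 ± 130 in macrophages and 402 in dendritic cells, while NK cells had 129 and T cells 140. Of 91 pairs of classes next to each other in these orders, none differed at a Benjamini-Hochberg adjusted p below 0.1 in a two-sided exact sign-flip permutation test over libraries. The smallest adjusted p was 0.102, 20 pairs had an unadjusted p below 0.05, and with 8 libraries the test cannot go below 0.00781. That limit and the number of pairs leave little room to pass, so the test does not show that neighbours were alike. In 6 pairs all 8 of 8 libraries had the same sign, namely Irf1 in neutrophils over monocytes (log2 difference 1.85 ± 0.31), Irf7 in monocytes over macrophages in both tumors, Irf5 and Irf9 in MC38 monocytes over macrophages, and Irf8 in Panc02-SIY monocytes over CD8 T cells.

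**Figure D1:**
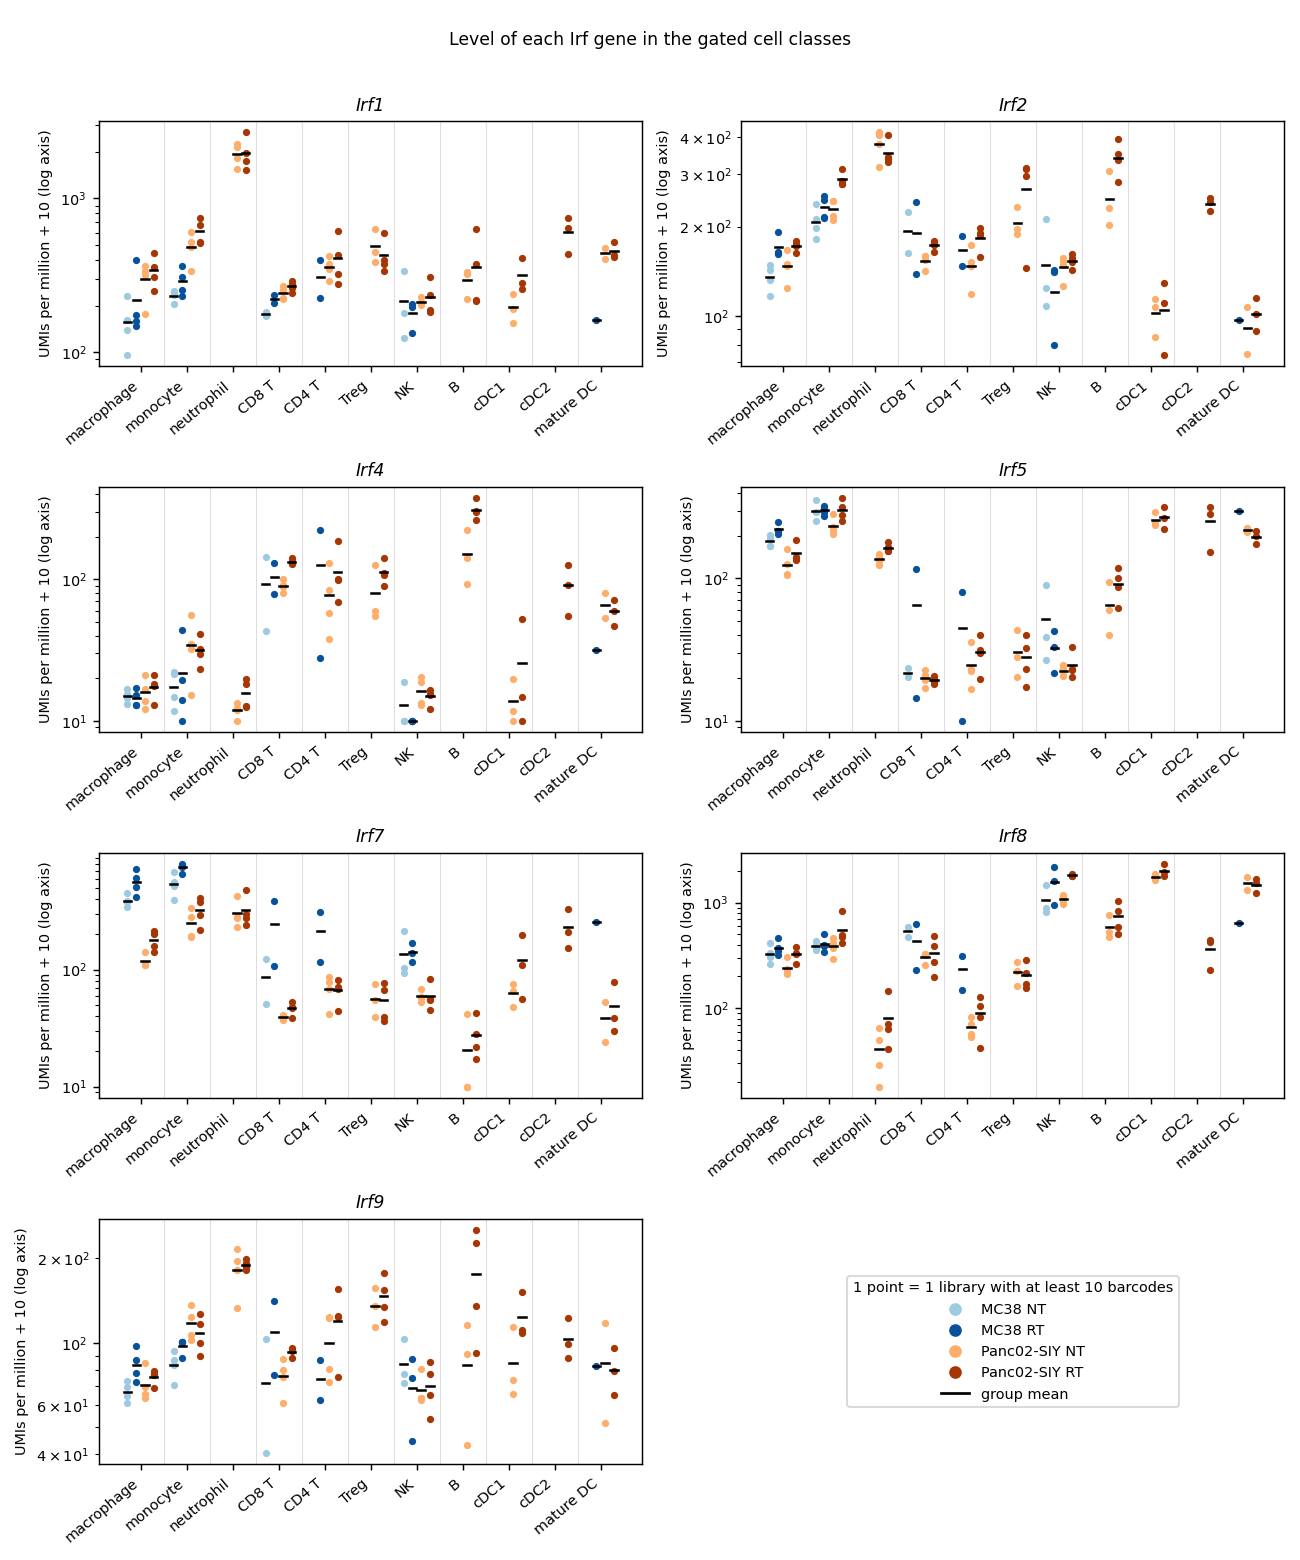
Level of each Irf gene (CPM + 10, log axis) in 11 gated classes, 1 panel a gene, 1 point a library with at least 10 barcodes of the class, and a bar for the group mean. Irf1 is highest in neutrophils (1960 CPM on average), Irf8 in cDC1 and NK cells, Irf4 in B cells, and Irf7 of MC38 libraries lies above that of Panc02-SIY libraries of the same treatment in macrophages and monocytes.

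The first comparison asks which factors changed 24 h after radiation. A factor was called changed in a class at an adjusted p below 0.1 over all genes tested there, by edgeR's quasi-likelihood test on UMIs summed per library, and a fold change above 1.3. In MC38, 4 of 34 pairs of a factor and a class were called, all of them higher after radiation and all in macrophages (Irf2, Irf5, Irf7 and Irf9). Over all genes of the same classes, 3.06% of pairs were called and 1.55% were called higher. In macrophages alone the share was 11.6%, against 4 of 7 factors. In Panc02-SIY, 2 of 45 pairs were called, both Irf7 and both higher, in macrophages and in dendritic cells, beside 2.82% over all genes. That share of factors is close to the background. No factor was called lower after radiation in either tumor. Over all genes 1.51% of pairs in MC38 and 1.54% in Panc02-SIY were called lower, so none among 34 and 45 pairs says little of the factors.

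Irf7, the interferon-induced amplifier, rose in macrophages of both tumors. In untreated MC38 macrophages its level was 330, 375, 441 and 368 CPM, and after radiation 596, 711, 404 and 500 CPM. One irradiated library, replicate 3, lay within the untreated range. The means were 378 ± 46.0 and 553 ± 132 CPM (n = 4 each), a log2 fold change of 0.63 ± 0.17 (SE, adjusted p = 0.0212). With all barcodes kept, the log2 fold change of Irf7 was 0.44 and the adjusted p 0.102, which ends the call. Markers of monocytes, a class with more Irf7 than macrophages, moved with this change. All 7 were detected in MC38 macrophages, where their summed level was 1585 to 2169 CPM untreated and 2216 to 2563 CPM after radiation, without overlap, and their part in the result was not tested. In Panc02-SIY macrophages the summed level was 433 to 1975 and 514 to 1344 CPM, with overlap. There Irf7 stood at 99.9, 131, 99.5 and 102 CPM untreated and at 191, 132, 149 and 204 CPM after radiation. The groups did not overlap, although the highest untreated and lowest irradiated libraries nearly met. The log2 fold change was 0.62 ± 0.18 (adjusted p = 0.0575), beside 6.77% of genes called in these macrophages, and the call was lost without untreated replicate 3 or 4 or irradiated replicate 1 or 4 (adjusted p of up to 0.214), and at an adjusted p of 0.115 when only the 2 groups were fitted.

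The largest called change after radiation was that of Irf7 in dendritic cells. Panc02-SIY dendritic cells had 61.9, 54.7, 56.1 and 65.4 CPM untreated, and 197, 115, 88.1 and 194 CPM after radiation. Every irradiated library lay above every untreated one. The log2 fold change of Irf7 was 1.26 ± 0.28 (fold 2.40, adjusted p = 0.0492), where 1.08% of genes were called, and it ended without any 1 of 5 of the 8 libraries (untreated replicates 2, 3 and 4, irradiated replicates 1 and 4), with adjusted p-values of up to 0.174. The makeup of this class moved as well. cDC1 were 59.8% of its barcodes on average in untreated libraries and 31.0% after radiation, while cDC2 went from 15.3% to 36.1%. Irf7 was highest in cDC2 of the 3 kinds, at 220 CPM, but that mean is of 3 irradiated libraries only. Untreated libraries had at most 8 cDC2 barcodes each, and the means of cDC1 and mature dendritic cells join both treatments. Within cDC1 alone, Irf7 was 55.7, 37.5 and 65.5 CPM in 3 untreated libraries and 99.4, 46.1 and 188 CPM in 3 irradiated ones (log2 fold change 1.09, adjusted p = 0.437). The part of the makeup in the result was not tested further. In MC38 dendritic cells, with 10 or more barcodes in only 3 and 2 libraries, Irf7 was 580, 473 and 349 CPM untreated and 284 and 324 CPM after radiation, and was not called.

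**Figure D2:**
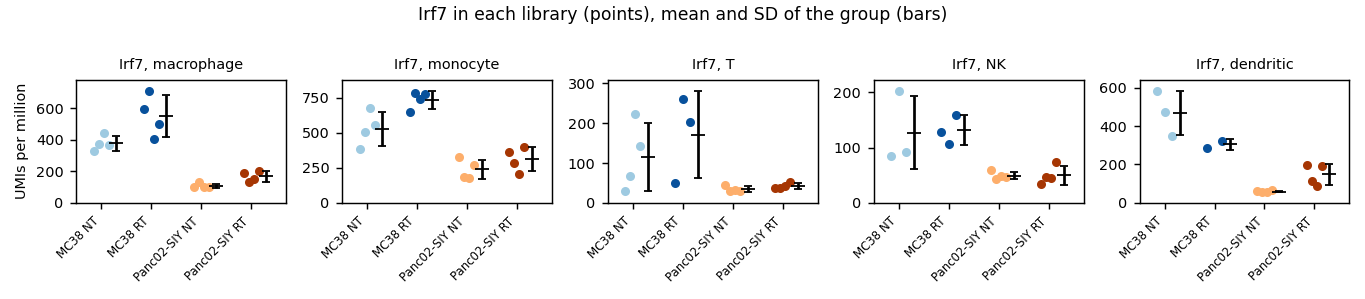
Irf7 (CPM) in each library by group, in macrophages, monocytes, T cells, NK cells and dendritic cells, with 1 point a library and bars for the group mean and SD. The 4 irradiated Panc02-SIY libraries of dendritic cells, 88.1 to 197 CPM, all lie above the untreated ones, and MC38 libraries lie above Panc02-SIY libraries of the same treatment in macrophages, monocytes, NK cells and dendritic cells.

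The other factors called in MC38 macrophages rose by smaller folds, beside the same rise of monocyte markers. MC38 monocytes held more of each than MC38 macrophages, at 210 against 142 CPM of Irf2, 290 against 193 of Irf5 and 80.5 against 65.2 of Irf9, and the part of these markers was not tested. Irf2, the factor that shares its sites with IRF1, was 122, 132, 107 and 138 CPM untreated and 182, 154, 152 and 152 CPM after radiation. The groups did not overlap, and the log2 fold change was 0.44 ± 0.10 (adjusted p = 0.00758), and without untreated replicate 3 it fell just below the fold limit (0.38). Irf5 was 160, 193, 159 and 181 CPM untreated and 207, 240, 196 and 206 CPM after radiation, again without overlap but with the closest libraries at 193 and 196 CPM. Its log2 fold change of 0.38 ± 0.13 (adjusted p = 0.0684) sat at the fold limit, and the call was lost (adjusted p of up to 0.194) without untreated replicate 1, 3 or 4, irradiated replicate 2 or 4, or any of 3 Panc02-SIY libraries that share the fit. Irf9 was 50.7, 54.6, 62.8 and 59.5 CPM untreated and 87.2, 76.5, 68.0 and 62.5 CPM after radiation. Irradiated replicate 4 fell just inside the untreated range of Irf9, and the log2 fold change was 0.42 ± 0.12 (adjusted p = 0.0331, and 0.114 without untreated replicate 1). With all barcodes kept, Irf2 had a log2 fold change of 0.32 (adjusted p = 0.0440, below the fold limit), Irf5 one of 0.27 (adjusted p = 0.262) and Irf9 one of 0.30 (adjusted p = 0.109), so none of them stayed called. Thinning all libraries to the same depth ended the same 3 calls. In macrophages of Panc02-SIY the same 3 factors differed by 0.22 (Irf2), 0.24 (Irf5) and 0.15 (Irf9) on the log2 scale and were not called.

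**Figure D3:**
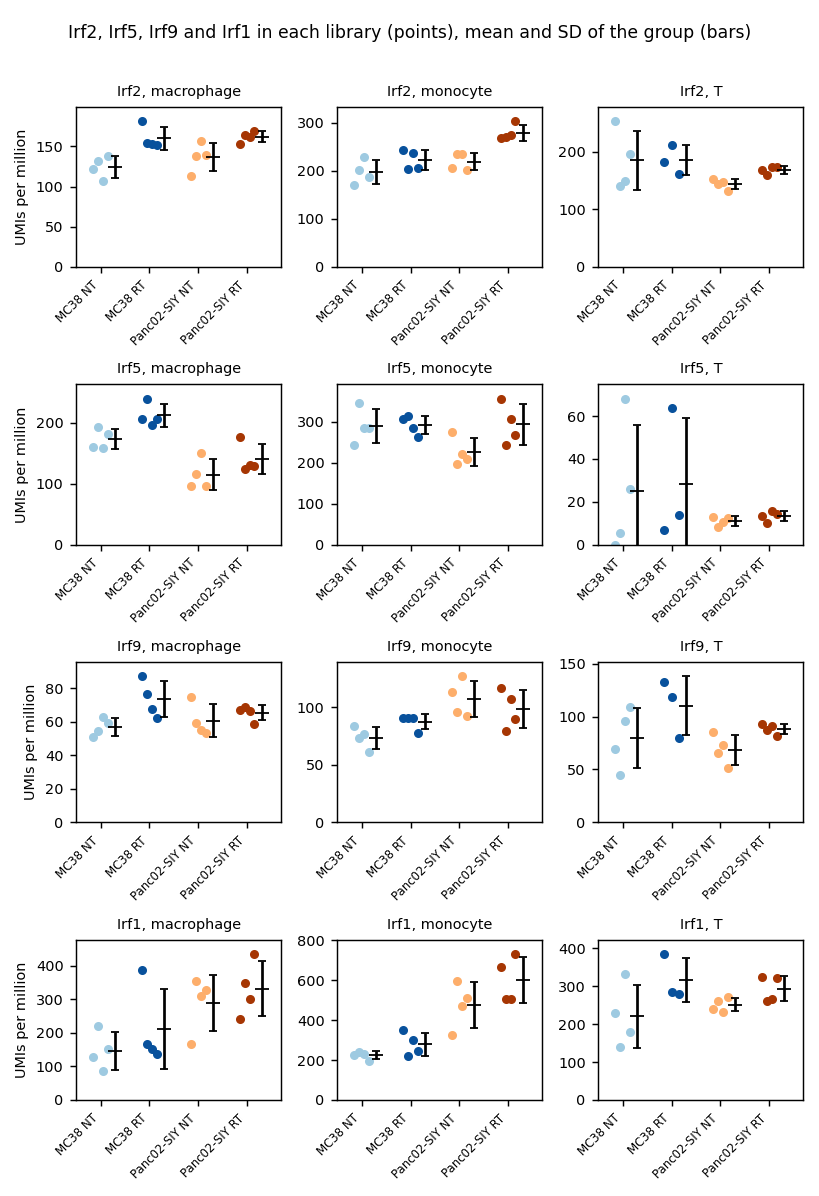
Irf2, Irf5, Irf9 and Irf1 (CPM) in each library by group, in macrophages, monocytes and T cells, with 1 point a library and bars for the group mean and SD. Irf2 and Irf5 of irradiated MC38 macrophages lie above all untreated libraries, and 1 irradiated MC38 library stands out for Irf1 in macrophages (388 CPM).

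Irf1 was not called in any class after radiation. In MC38 macrophages the untreated libraries had 129, 221, 86.1 and 151 CPM and the irradiated ones 388, 165, 150 and 137 CPM, so that replicate 1 alone lay outside the untreated range. In Panc02-SIY neutrophils, where the gene was highest, Irf1 was 1541, 2152, 1831 and 2254 CPM untreated and 1524, 1735, 1964 and 2681 CPM after radiation. The ranges overlapped almost fully, and the log2 fold change was 0.00. The largest Irf1 difference in Panc02-SIY was in dendritic cells (log2 fold change 0.88, adjusted p = 0.288), at 209 to 317 CPM untreated and 365 to 662 CPM after radiation. The groups did not overlap, and 2 of 10 other settings called this difference. The share of cDC2 rose in this class and that of cDC1 fell, as given above. Irf1 was 597 CPM in cDC2 (3 libraries) and 246 in cDC1, and the part of the makeup was not tested.

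Irf8 in NK cells of Panc02-SIY had the widest gap between groups that did not pass the test. Untreated libraries had 996, 969, 1164 and 1158 CPM, and irradiated libraries 1775, 1818, 1768 and 1864 CPM. The groups were far apart, at 1072 ± 103 and 1806 ± 44.3 CPM, with a log2 fold change of 0.69 ± 0.20 and an unadjusted p of 0.00175, but the adjusted p was 0.184 by edgeR with all 4 groups in the fit (0.371% of genes were called). Of 10 other settings, 6 called it, among them the fit of the 2 Panc02-SIY groups alone (adjusted p = 0.00235) and DESeq2 (adjusted p = 0.0379), so the outcome depended on the model. T cell markers in these NK cells went from a mean of 296 to 212 CPM without overlap, and their part was not tested. In MC38 NK cells Irf8 was 1445, 810 and 885 CPM in 3 untreated libraries and 1587, 2165 and 949 CPM in 3 irradiated ones (log2 fold change 0.61, adjusted p = 0.504). Irf8 in Panc02-SIY macrophages stood at 200, 294, 212 and 225 CPM untreated and 251, 324, 319 and 367 CPM after radiation. The groups overlapped in 1 library each, the log2 fold change was 0.43 (adjusted p = 0.111), and 7 of 10 other settings called it.

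Irf4 passed the test only in CD8 T cells of Panc02-SIY, a subset of the T cells. It was 80.5, 90.1, 78.6 and 70.0 CPM untreated and 120, 124, 130 and 118 CPM after radiation. No irradiated library came near an untreated one. The log2 fold change of Irf4 was 0.54 ± 0.15 (adjusted p = 0.0606, where 5.08% of genes were called), and it was lost without untreated replicate 2, 3 or 4 or irradiated replicate 1, 2 or 3, with an adjusted p of up to 0.186. Neutrophil markers in these CD8 T cells were 15.7 to 31.2 CPM untreated (median 24.7) and 45.0 to 609 CPM after radiation (median 88.0), without overlap. Neutrophils had 3.84 CPM of Irf4. In all T cells the log2 fold change of Irf4 was 0.43 (adjusted p = 0.244), and in B cells 0.96 (adjusted p = 0.179), with 211, 132 and 82.7 CPM in 3 untreated libraries and 252, 296, 291 and 363 CPM in irradiated ones.

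**Figure D4:**
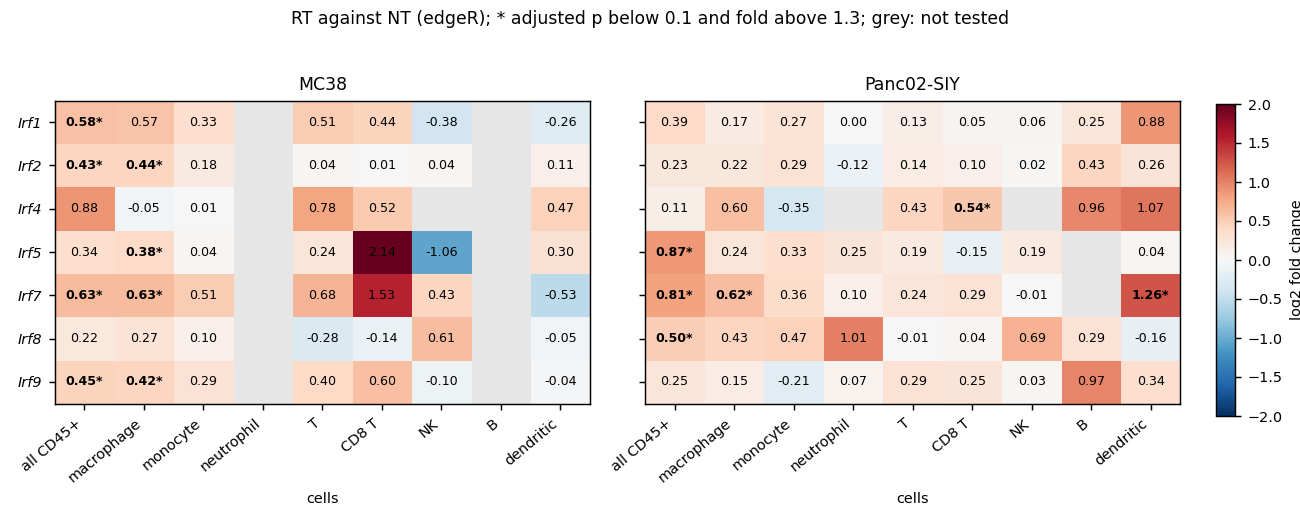
Log2 fold change of each Irf gene after radiation, MC38 on the left and Panc02-SIY on the right, with the genes as rows and all CD45+ cells, 7 classes and CD8 T cells as columns. Stars mark an adjusted p below 0.1 with a fold above 1.3 and grey cells were not tested; MC38 calls within a class lie in macrophages, and those of Panc02-SIY in macrophages and dendritic cells (Irf7) and CD8 T cells (Irf4).

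Summed over all CD45+ cells, 4 of 7 factors rose in MC38 (11.7% of all genes were called) and 3 of 7 in Panc02-SIY (14.7%). In such sums, a change in the number of cells of a type and a change of RNA per cell cannot be told apart. In MC38, Irf7 went from 319, 375, 463 and 371 to 517, 681, 469 and 543 CPM, without overlap, at a log2 fold change of 0.63 ± 0.16 (adjusted p = 0.0238). It was also called with all barcodes kept (0.46, adjusted p = 0.0860). Irf2 (0.43, adjusted p = 0.00207) and Irf9 (0.45, adjusted p = 0.0269) rose without overlap of the groups, and Irf1 (0.58, adjusted p = 0.0947) with overlap, since its irradiated replicate 1 had 372 CPM and the others 168 to 196. Without that library the log2 fold change of Irf1 was 0.30 (adjusted p = 0.285), and 13 of the 16 fits with a library left out lost the call. With all barcodes kept, Irf2 (0.31, below the fold limit), Irf9 (0.32, adjusted p = 0.130) and Irf1 (0.37, adjusted p = 0.180) were no longer called. Macrophages were 59.6% ± 6.7 of untreated and 47.4% ± 3.6 of irradiated MC38 barcodes, and monocytes 13.8% ± 4.0 and 21.4% ± 4.5. In Panc02-SIY, Irf5 rose from 44.7 ± 4.02 to 86.6 ± 17.7 CPM (0.87, adjusted p = 0.000936), Irf7 from 62.1 ± 4.79 to 114 ± 24.9 CPM (0.81, adjusted p = 0.00446) and Irf8 from 371 ± 34.5 to 551 ± 46.3 CPM (0.50, adjusted p = 0.00838), each without overlap. Irf5 differed by at most 0.33 on the log2 scale within any of the 6 classes tested, none of them called. Beside these sums, Panc02-SIY monocytes went from 2.2% ± 1.3 to 6.8% ± 0.9 of barcodes, neutrophils from 7.7% ± 2.4 to 13.2% ± 3.5 and NK cells from 9.3% ± 3.8 to 15.3% ± 3.6. T cells went from 44.7% ± 3.6 to 35.7% ± 7.2 and macrophages from 18.2% ± 8.8 to 13.7% ± 5.7.

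The second comparison asks how the factors differed between the 2 tumors. Among untreated libraries, 14 of 34 pairs of a factor and a class were called, 9 higher in MC38 and 5 higher in Panc02-SIY, where 22.9% of all pairs were called (10.7% and 12.1%). Among irradiated libraries, 11 were called, 7 higher in MC38 and 4 higher in Panc02-SIY, where 23.9% of all pairs were called (11.8% and 12.1%). Each tumor comparison uses other libraries, but the tumor, its barcode overlap and its depth cannot be told apart in either of them.

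Irf7 was the only factor called in all 5 classes that could be compared, and it was higher in MC38 in each, untreated and irradiated. In macrophages the log2 fold change was 1.90 ± 0.18 among untreated libraries (adjusted p = 9.9e-08) and 1.91 ± 0.18 among irradiated ones (adjusted p = 9.14e-08), with the lowest MC38 library at 330 CPM and the highest Panc02-SIY library at 204 CPM. In these macrophages 45.4% and 46.1% of all genes were called. The summed level of the 8 macrophage markers was 25614 CPM in untreated MC38 macrophages and 13112 in untreated Panc02-SIY ones, and that of the monocyte markers 1846 and 852 CPM. In monocytes, untreated MC38 had 386, 504, 678 and 554 CPM of Irf7 against 325, 184, 179 and 269 CPM in Panc02-SIY (1.31 ± 0.23, adjusted p = 0.000242, 33.6% of genes called), and irradiated MC38 647, 784, 741 and 778 CPM against 366, 282, 207 and 400 CPM (1.46 ± 0.21, adjusted p = 2.31e-05, 42.3% of genes called). No MC38 library overlapped a Panc02-SIY library of the same treatment. In dendritic cells the difference was 3.01 ± 0.30 untreated (adjusted p = 1.18e-05, 9.02% of genes called) and 1.23 ± 0.32 irradiated (adjusted p = 0.0412, 5.08%). The second was lost without irradiated MC38 replicate 3 or 4 or Panc02-SIY replicate 2 or 3 (adjusted p of up to 0.231) and with the highest doublet scores removed (0.155), and the share of cDC1 in that class was 17.2% in untreated MC38 and 59.8% in untreated Panc02-SIY. All the other settings that could be fitted kept the call of Irf7 in macrophages and monocytes, that with all barcodes included.

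Lymphocytes showed the same direction for Irf7 at lower levels. In NK cells, MC38 had 84.2, 203 and 92.8 CPM untreated and 127, 106 and 160 CPM irradiated, and Panc02-SIY 43.4 to 58.7 and 34.8 to 73.8 CPM. The log2 fold changes were 1.14 ± 0.32 (adjusted p = 0.0282, 8.35% of genes called) and 1.57 ± 0.29 (adjusted p = 0.000544, 11.1%), the first lost without untreated MC38 replicate 2 (adjusted p = 0.135) or with thinned libraries (0.280). In T cells, MC38 had 28.8, 67.6, 223 and 144 CPM untreated and 48.9, 261 and 203 CPM irradiated, and Panc02-SIY 30.9 to 44.3 and 36.7 to 51.5 CPM. The MC38 libraries were widely spread, and untreated replicate 1 lay below and irradiated replicate 1 within the Panc02-SIY range of its treatment. The log2 fold changes of Irf7 in T cells were 1.71 ± 0.47 (adjusted p = 0.0439, 13.2% of genes called) and 2.16 ± 0.44 (adjusted p = 0.0126, 11%), the first lost without untreated MC38 replicate 3 or 4 (adjusted p of up to 0.239), or with thinned libraries (0.441), from 99 and 180 Irf7 UMIs in MC38. Macrophage markers were read in T cells too, at 2.2% to 8.4% of their summed macrophage level in MC38 libraries and 2.3% to 9.4% in Panc02-SIY libraries. Irf7 in T cells was 8.2% to 64.7% of its macrophage level in MC38 and 19.3% to 44.4% in Panc02-SIY. The marker share in T cells is held low by the gate, which uses these markers but not Irf7. The shares of markers and of Irf7 can therefore not be weighed against each other. Summed monocyte markers in T cells were 723 to 1817 CPM untreated and 1520 to 2003 irradiated in MC38. In Panc02-SIY they were 724 to 1097 and 683 to 1165 CPM. In irradiated CD8 T cells MC38 had 1258 to 2269 CPM of them and Panc02-SIY 526 to 1200. In irradiated NK cells they went the other way, at 649 to 903 and 1016 to 1232 CPM. Macrophage markers in NK cells averaged 917 CPM in untreated and 775 in irradiated MC38, against 289 and 284 in Panc02-SIY, with overlap. In irradiated CD8 T cells the macrophage markers were 900 to 1106 CPM in MC38 and 228 to 610 in Panc02-SIY, without overlap. The part of either marker set was not tested. In irradiated CD8 T cells Irf7 was called as well (2.56 ± 0.39, adjusted p = 0.00503, 6.6% of genes called), from 375 and 97.5 CPM in 2 MC38 libraries, and the adjusted p was 0.108 without the first of them. Irradiated CD4 T cells gave 1.79 ± 0.45 (adjusted p = 0.0479, 2.97%), from 107 and 298 CPM in 2 MC38 libraries, and 0.635 without the second. That call was also lost with the highest doublet scores removed (0.105) and with thinned libraries (0.136). Macrophage markers in irradiated CD4 T cells were 1911 to 2190 CPM in MC38 and 251 to 872 in Panc02-SIY. Markers of cDC2 there were 275 to 438 and 16.3 to 54.7 CPM, and the part of these markers was not tested.

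Irf5 was higher in MC38 macrophages, at 159 to 193 against 96.1 to 150 CPM untreated (0.69 ± 0.13, adjusted p = 0.000297) and 196 to 240 against 125 to 177 CPM irradiated (0.83 ± 0.14, adjusted p = 5.1e-05), without overlap. In these macrophages 45.4% and 46.1% of genes were called. Monocyte markers there averaged 1846 CPM in MC38 and 852 in Panc02-SIY untreated, and ran from 2216 to 2563 and from 514 to 1344 CPM irradiated. Monocytes held more Irf5 than macrophages in both tumors, and the part of these markers was not tested. Irf5 was also higher in untreated MC38 monocytes (0.51, adjusted p = 0.0141, and 0.114 with thinned libraries), where the groups overlapped, and in untreated NK cells (2.04, adjusted p = 0.00644). The NK value rests on 18, 1 and 4 UMIs in the 3 MC38 libraries, and without replicate 1 the adjusted p was 0.627. The call of Irf5 in irradiated CD8 T cells (2.38, adjusted p = 0.0606) rests on 17 UMIs of irradiated MC38 replicate 3, and its sign turned without that library (-1.08). The same library had the 375 CPM of Irf7 in CD8 T cells on which the call of Irf7 there depended. The call of Irf5 was also lost without Panc02-SIY replicate 3, with only the 2 groups fitted (0.151) and with the replicate block (0.124). Irf8 was slightly higher in MC38 macrophages, at 319 ± 65.1 against 233 ± 42.4 CPM untreated (0.54, adjusted p = 0.00539) and 363 ± 60.3 against 315 ± 47.9 CPM irradiated (0.38, adjusted p = 0.0393), with overlapping groups. The irradiated difference lay at the fold limit and was lost without irradiated MC38 replicate 1 or any of 3 Panc02-SIY libraries (adjusted p of up to 0.130). It was also lost under 5 of 10 other settings, each time below the fold limit: the stricter gate, all barcodes (0.33), thinned libraries, no filter on low counts and only the 2 groups fitted.

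The reverse held for Irf8 in dendritic cells. MC38 libraries had 747, 815 and 413 CPM untreated and 736 and 465 CPM irradiated, and Panc02-SIY libraries 1519, 1516, 1459 and 1697 CPM and 1623, 1271, 1107 and 1660 CPM. All 5 MC38 libraries lay below all 8 Panc02-SIY libraries. The log2 fold changes were -1.16 ± 0.26 (adjusted p = 0.0114) and -1.06 ± 0.30 (adjusted p = 0.0572). The first ended with the highest doublet scores removed (adjusted p = 0.120), and the second under the same setting (0.153), with the replicate number as a block and without irradiated MC38 replicate 3 or 4 or Panc02-SIY replicate 1 or 4 (up to 0.390). cDC1, with the highest Irf8 of the classes compared, were 17.2% and 21.4% of the MC38 dendritic barcodes and 59.8% and 31.0% of those of Panc02-SIY, and cDC1 of MC38 were too few to be tested alone.

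Irf1 was lower in MC38 monocytes under both treatments. Monocytes of untreated MC38 had 227, 241, 232 and 195 CPM against 325, 598, 473 and 510 CPM in Panc02-SIY, and irradiated MC38 had 352, 222, 299 and 245 CPM against 664, 504, 508 and 731 CPM. The groups did not overlap under either treatment, with log2 fold changes of -0.98 ± 0.18 (adjusted p = 0.000139) and -0.92 ± 0.17 (adjusted p = 0.000116). MC38 monocytes also carried more of the macrophage markers, all 8 detected, at means of 7834 and 6264 CPM against 1590 and 1320 CPM in Panc02-SIY, without overlap. Macrophages hold less Irf1 than monocytes in both tumors, and the part of these markers was not tested. In untreated macrophages the log2 fold change of Irf1 was -0.92 (adjusted p = 0.0520, lost without any 1 of 6 of the 8 libraries, and with no filter on low counts, at up to 0.141) with overlapping groups. Irradiated macrophages gave -0.52 (adjusted p = 0.263), which was not called, and irradiated dendritic cells gave -1.50 (adjusted p = 0.0550), at 147 and 153 CPM in MC38 against 365 to 662 CPM. That call was lost without either MC38 library or Panc02-SIY replicate 1 (adjusted p of up to 0.284) and with the replicate number as a block (0.114). Irf9 was lower in untreated MC38 monocytes (73.6 ± 9.49 against 107 ± 15.9 CPM, -0.45, adjusted p = 0.0693), a call lost by DESeq2, with all barcodes (-0.33, adjusted p = 0.130), with no filter on low counts and without MC38 replicate 2 or 4 or Panc02-SIY replicate 3 (up to 0.277). Irf4 was called lower in MC38 monocytes (-1.67 and -1.31), from 0 to 11 UMIs a library in MC38 and overlapping groups, and leaving out 1 library raised the adjusted p to as much as 0.177 and 0.293. Irf2 differed in no class of either tumor comparison at the threshold.

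**Figure D5:**
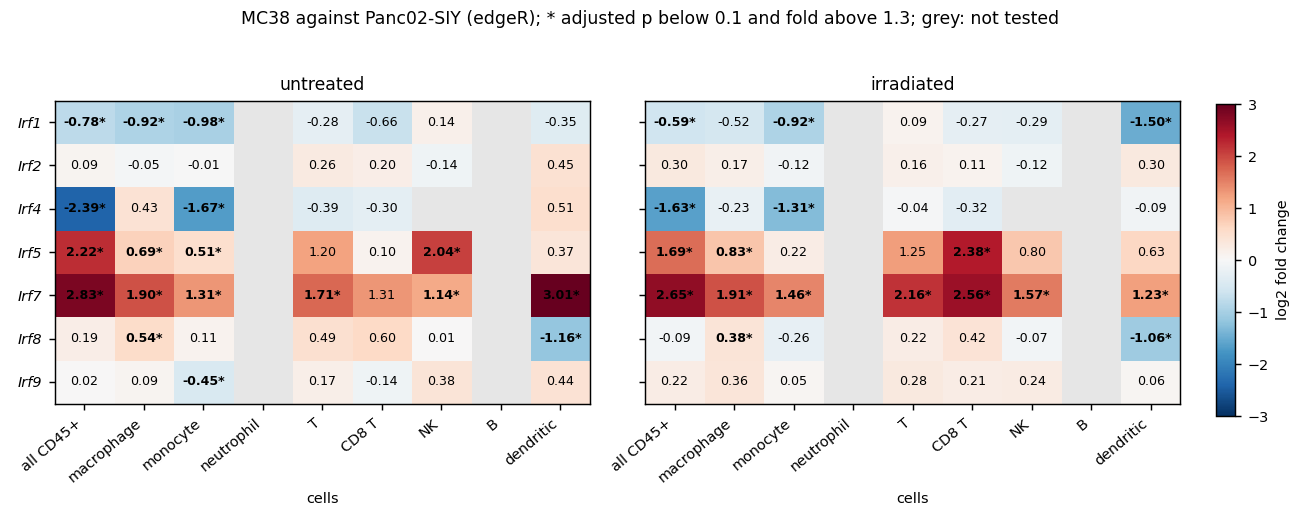
Log2 fold change of each Irf gene in MC38 against Panc02-SIY, untreated libraries on the left and irradiated ones on the right, with the genes as rows and all CD45+ cells and the classes as columns. Stars mark an adjusted p below 0.1 with a fold above 1.3 and grey cells were not tested; the row of Irf7 is called higher in MC38 in all 5 classes compared under both treatments, and Irf1 lower in monocytes.

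Over all CD45+ cells, Irf7 and Irf5 were higher and Irf1 and Irf4 lower in MC38 under both treatments, 4 of 7 factors each time beside 61.1% and 58.5% of all genes. That share of factors is close to the background. The log2 fold changes were 2.83 and 2.65 for Irf7, 2.22 and 1.69 for Irf5, -0.78 and -0.59 for Irf1 and -2.39 and -1.63 for Irf4, with groups that did not overlap. The cell makeup differed widely beside them. Macrophages were 59.6% of untreated MC38 and 18.2% of untreated Panc02-SIY barcodes, T cells 7.9% and 44.7%, and neutrophils, the class highest in Irf1, 0.6% and 7.7%.

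Whether radiation acted differently on the factors in the 2 tumors was tested as the interaction of tumor and treatment. None of 34 pairs of a factor and a class was called by the reported edgeR fits (0.00473% of all pairs were). DESeq2 called 1 pair, and edgeR with no filter on low counts called the same 1. That pair was Irf7 in dendritic cells, at -1.79 ± 0.45 (log2, MC38 minus Panc02-SIY, unadjusted p = 0.000832, adjusted p = 0.511), where Irf7 was 468 ± 115 CPM in untreated MC38, 304 in irradiated MC38, 59.5 in untreated and 148 in irradiated Panc02-SIY. For Irf7 in macrophages, whose log2 fold changes after radiation were 0.63 and 0.62, the interaction was 0.01 ± 0.25 (adjusted p = 1.00). Over all CD45+ cells the lowest adjusted p was 0.258, for Irf5 (-0.53), beside 0.345% of genes called.

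The genes around the factors were taken from lists of their pathway. Of 21 receptors, adaptors and kinases upstream of the IRFs, 4 were called higher after radiation over all CD45+ cells of MC38 and 6 in Panc02-SIY, with median log2 fold changes of 0.19 and 0.28 beside 0.04 and -0.03 over all genes. Over all genes 7.24% and 7.69% were called higher. Ikbke, a kinase that phosphorylates IRF3 and IRF7, was among them in both (0.73, adjusted p = 0.0195, and 0.61, adjusted p = 0.0181). Of 12 interferon, receptor and Janus kinase genes in the list, only 8 passed the filter on low counts and were tested. Of these, 3 and 2 were higher, with Jak2 in both (0.67 and 0.51). The largest change among them was that of Ifng in MC38 (1.79, adjusted p = 0.0805) and of Ifngr2 in Panc02-SIY (0.61, adjusted p = 0.00626). Among 16 partners and co-regulators, 4 were higher in MC38 and 4 higher and 2 lower in Panc02-SIY. They included Stat2, the partner of IRF9 in ISGF3 (0.71, adjusted p = 0.000264, and 0.64, adjusted p = 0.00042), and Irf2bp2, which encodes an IRF2-binding repressor (0.42 and 0.61). These values are sums over cell types, as above. Within MC38 macrophages, Jak2, Stat2 and Irf2bp2 were called (0.70, 0.70 and 0.50), but not Ikbke or Ifng (adjusted p = 0.177 and 0.158). Within Panc02-SIY T cells, Ikbke was called (0.77), but not Jak2, Ifngr2, Stat2 or Irf2bp2 (adjusted p from 0.194 to 0.600).

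Target genes moved in larger numbers. Of 48 interferon-stimulated genes, 32 were higher and none lower after radiation over all CD45+ cells of MC38, with a median log2 fold change of 0.72, and 27 were higher and none lower in Panc02-SIY, with a median of 0.67, beside the same 7.24% and 7.69% of all genes. Mx1 (1.38 and 1.47) and Rsad2 (1.23 and 1.42), both antiviral effectors, were among the largest changes in both. In macrophages, where Irf7 rose in both tumors, 31 of 48 were higher in MC38 (5.63% of all genes) and 14 of 48 in Panc02-SIY (3.04%), with medians of 0.67 and 0.54. In dendritic cells of Panc02-SIY, where Irf7 rose, 12 of 48 were higher with a median of 1.31, beside 1.05% of all genes. In those of MC38, where 0.049% of all genes were called higher, the median was 0.13. Irf3, a family member outside the 7, was not called after radiation in either tumor and was lower in MC38 over all CD45+ cells (-0.54 under both treatments). Within T cells that difference was 0.19 untreated and -0.14 irradiated, and was not called.

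The genes whose level over 30 points, the means of classes in groups, was most like that of each factor are given as a description, since the points share libraries and depth. For Irf7 they were Ifi204 (Pearson r = 0.96), Socs3 (0.95) and Fcgr3 (0.92), and for Irf5 Gpx1 (0.95), Spi1 (0.94) and Zfp516 (0.94). For Irf1 they were Fbxl5 (0.88), Dtx3l (0.88) and Sfmbt2 (0.87), and for Irf2 Msn (0.87), Gmip (0.87) and 9930111J21Rik2 (0.86). For Irf4 they were Traf5 (0.85), Gm8369 (0.85) and Tbxa2r (0.81). The closest genes to Irf9, AC163040.1 (0.79), Arl5b (0.77) and Nfkbid (0.76), and to Irf8, Gtpbp4 (0.72), Gnas (0.70) and Arl10 (0.69), were less alike than those of the other factors.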

How the data were processed

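Live CD45+ tumor cells in 16 libraries (4 groups of 4) had been counted by the authors with Cell Ranger 3.1.0 after bcl2fastq 2.20.0 on mm10, per the labels. The deposited matrices hold UMI counts per gene and called barcode, not normalized, and each library's matrix was used. Members and lists were chosen with earlier results of these data known. Marker genes of the gate came from a list, while its rule was set on the data: a barcode went to the class with the highest share of markers detected, at least 2, with no tie. The joined dendritic class was set after its cell counts were seen. No barcode was left out as a doublet. Scrublet (scanpy 1.11.5) called under 0.5% of barcodes, too few to have worked, so removing the 5% with the highest scores (1039) was an alternative.

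Counts were summed per library and class with at least 10 barcodes and tested in edgeR 4.0.16 (R 4.3.3; TMM, filterByExpr, robust quasi-likelihood fit of 4 group means), if 2 libraries a group remained. This left out 1 MC38 library for T cells, 2 for NK cells and 3 for dendritic cells, and all of MC38 for neutrophils and B cells. p-values were adjusted over all genes. Kept UMIs a library were 1385711 to 8500889 in MC38 and 5275195 to 43708746 in Panc02-SIY. Class order used log2(CPM + 10). Steps were tested on simulated data. Alternatives were DESeq2 1.42.0, RLE factors, no count filter, all barcodes, a cell filter, a stricter gate, thinned depth, 2-group fits, a replicate block, a stricter p and leaving out each library. Values for every library were given for at most 5 called members a comparison (largest fold changes), and for other members where a result is described. Named list genes came from up to 3 a list with the largest called changes, over all CD45+ cells or in the largest class compared. Of the 49 interferon-stimulated genes listed, 48 were in the files.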

Additional observations from a re-analysis of the deposited data

Results flagged for a closer look

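In 10 of 144 groups of 4 libraries (with a mean of at least 10 UMIs of the gene), 1 library stood apart from the other 3 by Dixon's 95% criterion, and chance flags about 1 in 20 groups. Irradiated MC38 replicate 1 did so 3 times. Of all libraries, this one kept the fewest barcodes (147) and the lowest share of its UMIs (42.8%), with a median of 2991 UMIs a kept barcode. It had 372 CPM of Irf1 over all CD45+ cells, where the other 3 had 168 to 196, 388 CPM of Irf1 in macrophages (others 137 to 165) and 182 CPM of Irf2 in macrophages (others 152 to 154). Untreated Panc02-SIY replicate 1 did so 3 times, low for Irf8 in T cells (207 CPM, others 288 to 299) and high for Irf9 in NK cells (70.7 CPM, others 52.3 to 53.7) and Irf2 in dendritic cells (135 CPM, others 96.9 to 103). Untreated Panc02-SIY replicate 2 had 131 CPM of Irf7 in macrophages (others 99.5 to 102), and untreated replicate 3 had 99.5 CPM of Irf9 in dendritic cells (others 64.7 to 69.2). Irradiated Panc02-SIY replicate 1 had 177 CPM of Irf5 in macrophages (others 125 to 131), and irradiated MC38 replicate 4 had 78.0 CPM of Irf9 in monocytes (others 90.4 to 90.9). None of 48 tests of an interaction of tumor and radiation was called by the reported edgeR fits (lowest adjusted p 0.258).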

How the results depend on the processing

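Of the log2 fold changes called, 451 values under other settings and 721 values with a library left out kept both direction and call, 40 and 78 lost the call and 1 changed sign. That was Irf5 in irradiated CD8 T cells, at -1.08 to 3.42 with a library left out (2.38 with all, -1.08 without irradiated MC38 replicate 3). Where the library left out had too few barcodes to enter the class, the reported value was counted again as kept. Libraries of groups outside a comparison were left out and counted too. The 721 values thus overstate how well the calls hold. The 4 pairs called in MC38 after radiation became 0 with all barcodes and 1 with libraries thinned to the same depth, and ranged from 2 to 5 with a library left out (2 without untreated replicate 1 or 3). The 2 pairs in Panc02-SIY became 4 with 1 more marker gene in the gate, 4 by DESeq2, 5 with thinned libraries, 5 with no filter on low counts and 1 at an adjusted p below 0.05, and ranged from 0 to 4 with a library left out (0 without untreated replicate 3 or 4 or irradiated replicate 4). The 14 and 11 pairs between tumors ranged from 10 to 14 and from 7 to 12 with a library left out (7 without irradiated Panc02-SIY replicate 1). The interaction went from 0 to 1 by DESeq2 and 1 with no filter, and was 0 with any library left out. The order of classes went from 0 separated neighbours to 17 with all barcodes, 6 with the cell filter, 15 with the highest doublet scores removed and 14 with the stricter gate, and was 0 with any library left out. The causes were not tested, except that fewer libraries or UMIs enter some settings by construction. Replicate numbers in the labels were not used to pair the samples in the reported fits. Over all CD45+ cells, deviations of Panc02-SIY libraries with the same number correlated at 0.65, -0.23, 0.20 and 0.81, and 2 of 4 correlated best with their own number. In their T cells the values were 0.54, 0.08, 0.31 and 0.76, and in MC38 over all CD45+ cells 0.16, -0.06, 0.08 and 0.03. These values do not settle whether Panc02-SIY libraries were paired. With the replicate block, the counts were 4 in MC38, 4 in Panc02-SIY, 14 and 9 between tumors and 0 for the interaction. Where a group kept 1 library, it was assumed to vary like the others. Depth limits MC38 most: libraries of 147 to 609 barcodes cannot show small differences in T, NK or dendritic cells.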

Other observations

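Rare classes had too few barcodes for any comparison and were pooled over all libraries, with exact 95% Poisson intervals that cover counting error only. The 26 plasmacytoid dendritic cell-like barcodes had 3031 CPM of Irf8 (2832 to 3240), above the mean of any class tested, and 225 CPM of Irf7 (173 to 287), a gene that plasmacytoid dendritic cells are known to hold in a resting state. The 12 plasma cell-like barcodes had 126 CPM of Irf4 (80.0 to 189), from 23 UMIs, and 22.0 CPM of Irf8 (5.98 to 56.2). The 106 mast cell- or basophil-like barcodes had 273 CPM of Irf1 (242 to 307), 12.8 CPM of Irf8 (6.80 to 21.9) and 1 UMI of Irf4.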
